A study of Mus musculus with 4 samples.

Results

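Constitutively accessible regions were taken as the stretches of autosomal chromatin that were called as open in all 4 libraries of the series, whatever the age of the mice or the treatment. They were chosen from the measured calls: touching or overlapping regions of the 4 library lists were merged, and a merged region was kept when it overlapped, by at least 1 bp, a region of every list. The rule kept 14668 of 163967 merged autosomal regions, or 8.95% (8.81 to 9.08%). Intervals here and below are 95% exact binomial (Clopper-Pearson) intervals over regions and cover counting error only. Constitutive means no more than called in these 4 libraries.

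The cells were fibro/adipogenic progenitors (FAPs), the mesenchymal cells that lie between muscle fibres, sorted from hind limb muscle as Sca-1 positive cells without Ter119, CD45, CD31 and α7 integrin. All mice were C57BL/6 mdx, a strain without dystrophin that serves as a model of Duchenne muscular dystrophy, so the controls carried the mutation too and no wild-type mice were compared. The groups were TSA and control in young mice and TSA and control in old mice, with 1 library in each. TSA mice had received 0.5 mg per kg per day of the histone deacetylase inhibitor trichostatin A for 15 days, and controls saline according to the protocol, although their treatment label reads none. Ages are given only as young and old, and whether animals were pooled is not stated in the labels. With 1 library per group, no value below has an error between animals, no difference between libraries could be tested, and all comparisons are descriptions of these 4 libraries. The lists hold positions without counts, scores or heights, so the depth behind each call is unknown.

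In most tissues, chromatin that is open in every condition includes the promoters of genes that all cells use and the binding sites of insulator proteins such as CTCF, while enhancers tend to open and close with cell state. Histone deacetylases remove acetyl groups from histones, and their inhibition raises acetylation, which loosens the packing of DNA on nucleosomes. NA-seq marks open chromatin by cutting intact nuclei with a restriction enzyme, so it reports only sequence near a recognition site. Which enzyme, NlaIII or HpaII, cut the nuclei of each library is not given in the labels. Positions are of build mm9, with starts counted from 1. Genes, enzyme sites and base composition of the regions, and the marker genes of FAPs and of the cells removed by the sort, were not analysed here, since the tables at hand are of another build.

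The constitutive regions took up a similar number of calls in every library but a very different share. They held 15307 of the 42904 autosomal regions of the young control, or 35.7% (35.2 to 36.1%). In young TSA they held 15538 of 79375 regions, or 19.6% (19.3 to 19.9%). In old control they held 15574 of 95128 (16.4%, 16.1 to 16.6%), and in old TSA 15613 of 85889 (18.2%, 17.9 to 18.4%). By sequence covered, the shares were 40.3% in young control, 25.0% in young TSA, 20.2% in old control and 22.5% in old TSA. The short young control list thus limited the set more than the other lists did. Applied to the other 3 libraries alone, without young control, the rule gave 32427 regions. Leaving out young TSA, old control or old TSA in turn gave 16775, 17900 and 17424. With only the library regions of 1900 bp or wider, 5278 constitutive regions were left.

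Together the merged constitutive regions spanned 42.3 Mb, which was 14.1% of the 299 Mb spanned by all merged autosomal regions. Their merged width had a median of 2500 bp (quartiles 2000 and 3400 bp), and the 5th and 95th percentiles were 1900 and 5200 bp. Merged regions called in 3 libraries had a median of 2000 bp, those called in 2 libraries 1900 bp and those called in 1 library 1300 bp. Merging over more libraries widens a region by construction. Within single libraries, where nothing was merged, the calls inside constitutive regions were also wider than the other calls. The median was 1800 bp against 1400 bp in young control and 1900 bp against 1700 bp in each of the other 3 libraries. Calls of 1900 bp or wider made up 48.9% of those inside and 22.8% of those outside in young control, 79.6% and 41.6% in young TSA, 76.4% and 43.4% in old control, and 75.3% and 39.8% in old TSA. Calls of 1000 bp, the narrowest found in any list, were correspondingly rarer inside: 8.44% against 18.3% in young control, and 2.68 to 3.38% against 12.8 to 13.3% in the others. These widths come from the calls that the rule used and are given as a description. The share of merged regions that were constitutive rose with merged width, from 7.27% of those of 1900 bp to 24.5% between 2000 and 2900 bp, 53.1% between 4000 and 4900 bp and 69.8% between 5000 and 9900 bp.

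The sequence called in all 4 libraries at once, the common core, was shorter than the merged regions. It amounted to 20.9 Mb, or 49.4% of the merged sequence. Its median was 1400 bp per region (quartiles 1100 and 1900 bp), and 12510 regions (85.3%) had a core of 1000 bp or longer. In 1128 regions (7.69%) the core was the whole region, since all 4 libraries gave the same start and the same end. Of those 1128 regions, 1033 (91.6%) were exactly 1900 bp wide. The widest of them lay on chromosome 5 from 15114201 to 15118400, where each library had 1 call of 4200 bp. It was followed by chromosome 5 from 14949201 to 14953000 and chromosome 7 from 26471901 to 26475700, both of 3800 bp, and by chromosome 11 from 115135401 to 115139100 and chromosome 17 from 39982201 to 39985900, both of 3700 bp. Among these 5 regions of identical extent, those on chromosomes 7, 11 and 17 were nevertheless in the authors' list of regions higher in young TSA, and the one on chromosome 17 also in that of old TSA. A region can therefore be called with the same edges in every library and still be listed as differing.

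At the edge of the rule, 694 members (4.73%, 4.39 to 5.09%) had no base common to all 4 libraries and were joined only by partial overlaps or touching ends. The narrowest of these, on chromosome 16 from 89649601 to 89651800, had called lengths of 1000 bp in young control, 1800 bp in young TSA, 1000 bp in old control and 1800 bp in old TSA. Just outside the rule lay the 26103 regions called in 3 libraries, of which 945 (3.62%) had a call of the missing library within 500 bp. An example with a gap of 100 bp was chromosome 1 from 12867001 to 12868900, which old TSA lacked while young control called 1400 bp and the other libraries 1900 bp. For the 17768 regions missing from young control alone, the nearest young control region was a median of 12.9 kb away, so that most were not near misses in position. The median was 7.1 kb for regions missing from young TSA alone, 4.8 kb for old control and 5.9 kb for old TSA. The young control list held the fewest regions, so these medians do not compare the libraries.

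Most constitutive regions were single calls. Of the 14668, 12644 (86.2%, 85.6 to 86.8%) consisted of exactly 1 call in each library, and the other 2024 held more than 1 call in at least 1 library. Called length, the number of bases called inside a region, differed most between young control and the other libraries. In young control its median was 1900 bp (quartiles 1400 and 1900 bp) and its mean 1845 bp (SD 823 bp over regions). The mean was 2393 bp (SD 1124 bp) in young TSA, 2265 bp (SD 1039 bp) in old control and 2257 bp (SD 1036 bp) in old TSA, all with a median of 1900 bp. The most frequent length, 1900 bp, was found in 4492 constitutive regions in young control, 5081 in young TSA, 5540 in old control and 5466 in old TSA. The distributions separated on either side of that length, with young control above the other libraries at shorter lengths and below them at longer ones. The median part of a merged region that a library called was 68.8% in young control, 92.5% in young TSA and 86.4% in both old libraries. Young control alone had the shortest call in 6193 regions (42.2%), against 930 (6.34%) for young TSA, 1771 (12.1%) for old control and 1605 (10.9%) for old TSA. Young TSA alone had the longest call in 3574 regions (24.4%) and young control in 838 (5.71%). Called length was the same in all 4 libraries in 1212 regions (8.26%).

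**Figure D1:**
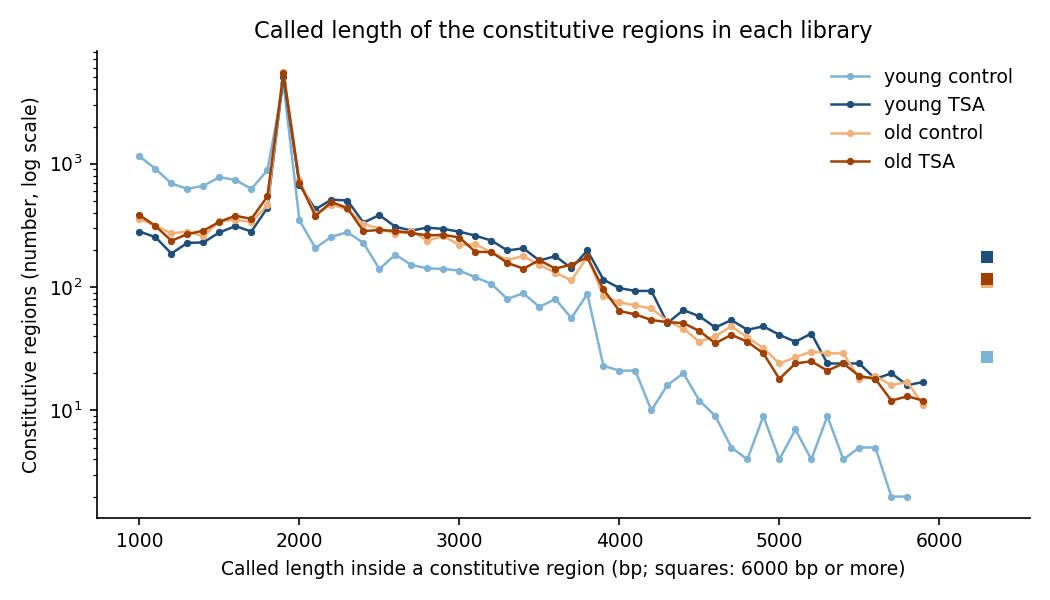
Number of constitutive regions (y axis, log scale) by called length in bp (x axis) in each of the 4 libraries, in steps of 100 bp, with lengths of 6000 bp or more as squares. All libraries peak at 1900 bp, with 4492 regions in young control and 5081 to 5540 in the others, and young control lies above the other lines at shorter lengths and below them at longer ones.

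Most constitutive regions were called over a longer stretch in young TSA than in young control. Called length was longer in young TSA in 9581 regions (65.3%, 64.5 to 66.1%), equal in 3028 (20.6%) and shorter in 2059 (14.0%). Of the regions with unequal length, 82.3% (81.6 to 83.0%) were longer with TSA. The median difference was 300 bp, and 700 bp among the regions that were longer. In the old mice the 2 directions were nearly balanced: called length was longer in old TSA in 5148 regions (35.1%, 34.3 to 35.9%), equal in 4197 (28.6%) and shorter in 5323 (36.3%, 35.5 to 37.1%). Of the unequal regions, 49.2% (48.2 to 50.1%) were longer with TSA, and the median difference was 0 bp. The balance in old mice passed to the other side, 50.6%, when only library regions of 1900 bp or wider were used. Calls outside constitutive regions were also wider in young TSA than in young control, with medians of 1700 bp and 1400 bp. Of them, 41.6% and 22.8% were 1900 bp or wider. In both old libraries the median outside was 1700 bp. Called lengths come from the calls that the rule used, and their comparison over all regions called in both young libraries is not given here. The number of autosomal calls was higher in young TSA than in young control (79375 against 42904) and lower in old TSA than in old control (85889 against 95128). Over the 4 libraries it did not follow the mean called length. That mean was longest in young TSA (2393 bp, against 2265 bp in old control and 2257 bp in old TSA), which had fewer calls than either old library. The part of the number of calls in the result was not tested.

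Between the ages, old control was longer than young control in 8663 regions (59.1%, 58.3 to 59.9%) and shorter in 3113 (21.2%), or longer in 73.6% of the unequal ones. With TSA the order was the other way: old TSA was longer than young TSA in 4197 regions (28.6%) and shorter in 6187 (42.2%), so that 40.4% (39.5 to 41.4%) of the unequal regions were longer in the old library. These comparisons share libraries with those of TSA against control and are not independent of them. The young control library entered both of the comparisons with a strong imbalance, so that its part and that of TSA or age cannot be told apart. The 11661 regions in none of the authors' differential lists gave nearly the same picture, with young TSA longer than young control in 80.1% (79.2 to 80.9%) of the unequal regions and old TSA longer than old control in 48.9%.

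**Figure D2:**
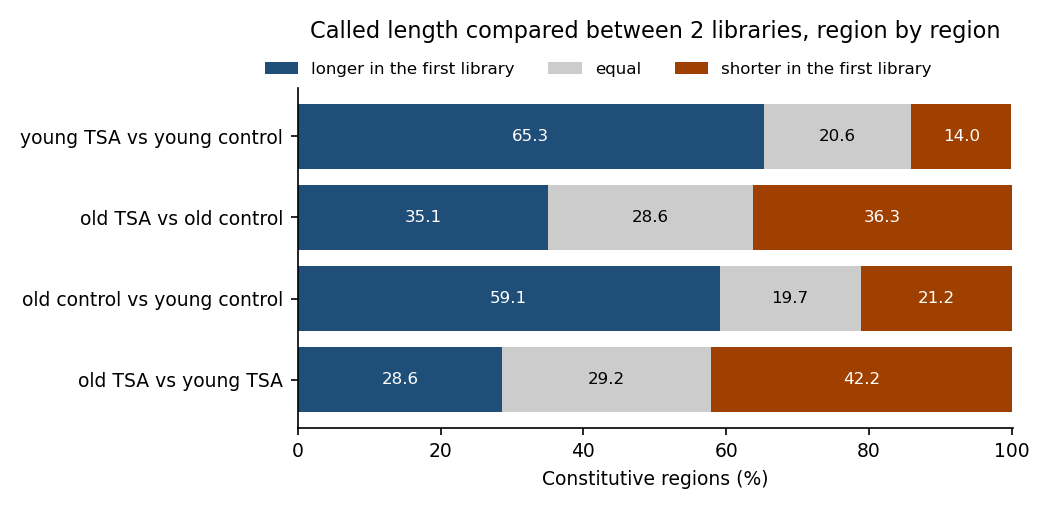
Share of the 14668 constitutive regions (x axis, %) whose called length was longer, equal or shorter in the first library of each pair than in the second. Young TSA was longer than young control in 65.3% and shorter in 14.0%, while old TSA was longer than old control in 35.1% and shorter in 36.3%.

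Longer calls mostly enclosed the shorter ones. Among the 12644 regions with 1 call per library, the young TSA call contained the whole young control call and reached beyond it in 6823 (54.0%, 53.1 to 54.8%). The reverse held for 1236 (9.78%), and each reached past the other in 1996 (15.8%). In the old mice old TSA contained a shorter old control call in 3451 regions (27.3%), and old control a shorter old TSA call in 3582 (28.3%). Calls of the 2 young libraries shared no base in 130 regions (1.03%), and those of the old libraries in 85 (0.672%). Start and end were the same in young TSA and old TSA in 30.1% of these regions, the highest share of the 6 pairs of libraries. For old control and old TSA it was 28.8% and for young TSA and old control 27.7%. The 3 pairs with young control were lower, at 18.2% with old control, 19.2% with old TSA and 20.5% with young TSA.

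Regions longer and regions shorter with TSA in young mice split in much the same way in old mice. These 2 comparisons share no library, but both were made inside the same merged regions. Of the 9581 regions longer in young TSA, 38.0% were longer and 38.6% shorter in old TSA than in old control. Of the 2059 regions shorter in young TSA, 36.8% were longer and 38.6% shorter in the old mice. The regions of equal length in the young mice were more often equal in the old mice as well, in 1449 of 3028 cases (47.9%), against 23.4% and 24.6% for the regions longer and shorter in young TSA. Equal length went with merged width at both ages. At 1900 bp, 43.8% were longer and 9.72% shorter in young TSA, and 20.0% and 20.0% in old TSA. At 5000 to 9900 bp these shares were 89.5% and 8.79%, and 47.3% and 47.0%. Width was not held fixed here, and its part was not tested.

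The authors' differential lists named regions as higher in TSA (gained) or higher in control (lost) at each age. They come from the same libraries as the calls, so the shares of constitutive regions in them are descriptions, read against the share of all merged autosomal regions. Of the constitutive regions, 2362 (16.1%, 15.5 to 16.7%) overlapped the young gained list. The background was 5.00% of all merged regions and 10.9% of those called in both young libraries. The backgrounds here and below contain the constitutive regions themselves. Of the 24259 regions called in both young libraries 14668 were constitutive, as were 2362 of the 2655 in the list. The young lost list was overlapped by 56 (0.382%, 0.289 to 0.495%). The backgrounds were 0.274% and 0.326%, the latter with 79 listed regions, of which 56 were constitutive. In the old mice 436 (2.97%, 2.70 to 3.26%) were in the gained list, against 2.10% of all merged regions and 2.13% of those called in both old libraries. The old lost list held 443 (3.02%, 2.75 to 3.31%), against 2.56% and 2.65%. The old gained and old lost shares were 2.01% and 2.13% when every library had to cover at least 50% of the merged region. Backgrounds at that setting were not computed, so these 2 shares have none to be read against. With library regions of 1900 bp or wider only, 25.9% were in the young gained and 0.625% in the young lost list, where all merged regions at that setting gave 9.88% and 0.342%. The old gained and old lost shares were then 3.62% and 3.20%, against 3.11% and 4.27% of all merged regions, so that the old lost share lay below its background. Most constitutive regions, 11661 (79.5%), were in no list. The regions missing from young control alone had a larger share in the young gained list (18.8%, 18.2 to 19.4%) and a smaller one in the old gained list (2.13%, 1.92 to 2.35%). Their old lost share was 3.20% (2.94 to 3.47%), and 0 were in the young lost list. They were chosen as called in young TSA and not in young control, so their shares in the 2 young lists follow in part from that choice.

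**Figure D3:**
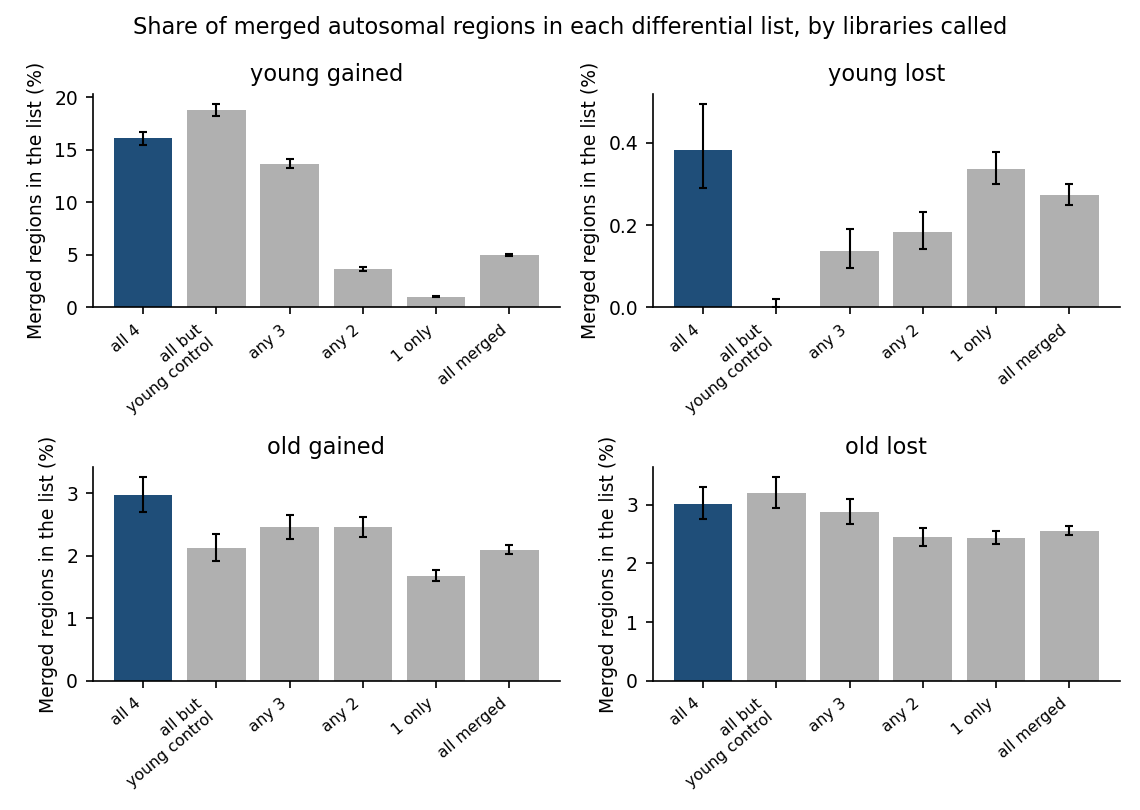
Share of merged autosomal regions (y axis, %) that overlap each of the authors' 4 differential lists, by the libraries in which the region was called, with 95% exact binomial intervals as error bars. Constitutive regions (dark bars) stand at 16.1% for young gained against 5.00% of all merged regions. They stand at 0.382% against 0.274% for young lost, 2.97% against 2.10% for old gained and 3.02% against 2.56% for old lost.

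Seen from the lists, 2440 of the 8298 autosomal young gained regions (29.4%, 28.4 to 30.4%) lay in constitutive regions, although such regions held 19.6% of the young TSA calls. For the other lists the order was the other way. Of the young lost regions 66 of 458 (14.4%, 11.3 to 18.0%) lay in constitutive regions, against 35.7% of the young control calls. For old gained regions the share was 12.8% (11.7 to 14.0%) against 18.2% of the old TSA calls, and for old lost regions 10.6% (9.70 to 11.6%) against 16.4% of the old control calls. Of the young control calls, 0.366% inside constitutive regions and 1.42% outside were in the young lost list. For old TSA calls and the old gained list the shares were 2.81% and 4.27%. For old control calls and the old lost list they were 2.85% and 4.73%. Young TSA calls and the young gained list gave 15.3% and 9.15%. In the young lost and both old lists, the order thus depends on whether merged regions or calls of 1 library are the base.

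Wider constitutive regions were more often in a list. The share in the young gained list was 8.17% among the 3232 regions of exactly 1900 bp, 14.3% among those of 2000 to 2900 bp, 19.1% at 3000 to 3900 bp, 25.6% at 4000 to 4900 bp and 37.1% at 5000 to 9900 bp. A wider region offers more sequence for an overlap. At equal width the regions missing from young control alone had higher shares among the narrow regions, with 15.2% at 1900 bp and 23.1% at 2000 to 2900 bp, and similar shares above, with 26.7% at 4000 to 4900 bp. Those regions were chosen by their young calls, which bears on these shares too. Within the constitutive regions of the young gained list, young TSA had the longer call in 1835 (77.7%) and the shorter one in 142 (6.01%). The median called length in these regions was 1900 bp in young control, 2700 bp in young TSA and 2200 bp in both old libraries. In the old mice, whose libraries did not enter that list, old TSA was longer than old control in 33.9% of them and shorter in 32.9%. In the constitutive regions of the old gained list, old TSA was longer in 327 of 436 and shorter in 58 (13.3%), and in those of the old lost list it was longer in 10.8% and shorter in 75.8%.

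Constitutive members of the old gained and old lost lists were also in the young gained list at similar shares. That was so for 135 of the 436 old gained members (31.0%, 26.7 to 35.5%) and for 136 of the 443 old lost members (30.7%, 26.4 to 35.2%), against 15.2% (14.6 to 15.8%) of the constitutive regions in neither old list. Members of the old lists were wider, with medians of 3400 and 3300 bp. Within width classes the shares of both old lists were above that of the other regions in each class up to 9900 bp, but the intervals did not always exclude it. The intervals treat regions as independent, cover counting error only and are not a test. Up to 1900 bp they were 26.1% (10.2 to 48.4%) of 23 old gained and 14.8% (4.19 to 33.7%) of 27 old lost members, against 7.31%. At 2000 to 2900 bp they were 28.9% (21.4 to 37.3%) and 34.0% (26.3 to 42.4%) against 13.5%. At 3000 to 3900 bp the intervals of both, 21.3% (14.5 to 29.4%) and 25.0% (17.9 to 33.3%), included the 18.8% of the other regions. The same held at 4000 to 4900 bp, with 35.3% (24.1 to 47.8%) and 29.7% (18.9 to 42.4%) against 24.9%, and at 5000 to 9900 bp, with 45.5% (34.1 to 57.2%) and 38.4% (27.2 to 50.5%) against 36.4%. Overlaps with the young lost list were few, 5 with old gained and 4 with old lost.

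The widest constitutive regions were also those with the longest common core. The widest lay on chromosome 11 from 3056401 to 3100900, spanning 44500 bp with a core of 42100 bp. Young control called all of it as 1 region, and each of the other libraries called 42800 to 43200 bp of it in 6 pieces. Second was chromosome 1 from 90122401 to 90162400, where young control called 32100 bp in 6 pieces and the other libraries 39400 to 39800 bp in 2 to 4 pieces. On chromosome 11, the neighbouring stretch from 3037001 to 3055500 was called over its full 18500 bp in every library except young control, which called 17300 bp of it. These 3 regions each overlapped all 4 differential lists, and they were the only constitutive regions that did. They were also the widest of the 136 regions gained in young and lost in old mice and of the 5 regions lost in young and gained in old mice. Next came chromosome 5 from 94123301 to 94137500, which spanned 14200 bp and was in no list. It was followed by a region of 14000 bp on chromosome 1, from 90108201 to 90122200, which overlapped the young lost list alone. The widest region of all held 2 young gained and 8 young lost regions at once. Repeat content and mappability were not analysed for any region, so whether these wide calls reflect open chromatin could not be told.

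Constitutive regions lay close to each other. The nearest other constitutive region was a median of 23.2 kb away (quartiles 7.70 and 66.7 kb), and 68.8% (68.1 to 69.6%) had another within 50 kb. Merged regions called in fewer libraries lay farther from the nearest constitutive region, in the order of the number of libraries. Of those called in 3 libraries 59.4% (58.8 to 60.0%) had a constitutive region within 50 kb, of those called in 2 libraries 52.5% (52.0 to 53.0%), and of those called in 1 library 45.8% (45.5 to 46.1%). Over all merged regions, the constitutive ones included, the share was 51.6% (51.3 to 51.8%). Neighbouring regions are not independent, so these intervals are too narrow and do not compare the classes. The same order was found within 10 kb, at 29.9%, 23.0%, 18.8% and 15.4%. Position was not used to choose the regions, beyond the restriction to autosomes. With library regions of 1900 bp or wider only, which leaves fewer constitutive regions, the share with another within 50 kb was 45.2%.

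**Figure D4:**
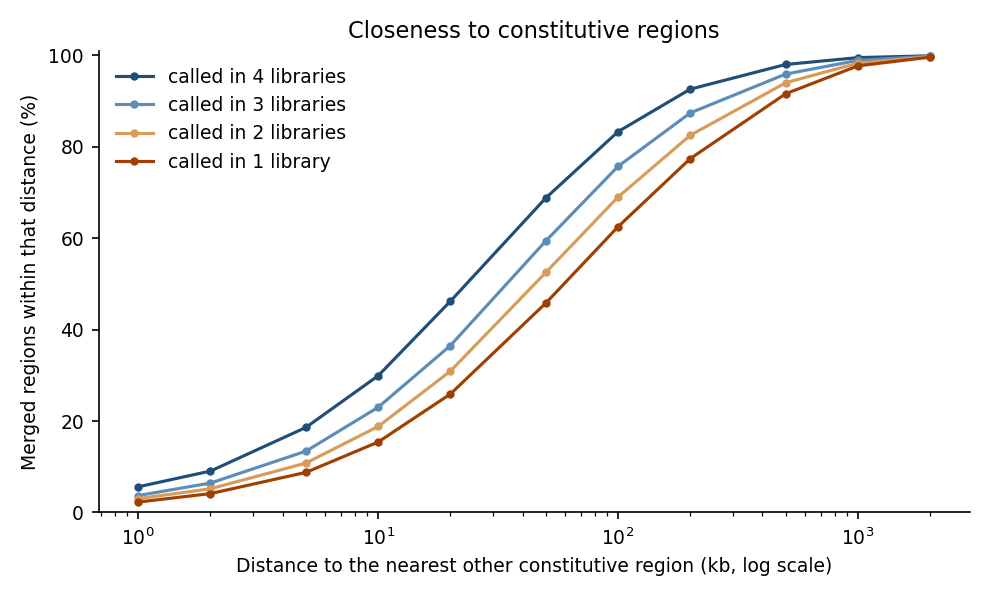
Share of merged autosomal regions (y axis, %) with another constitutive region within a given distance (x axis, kb, log scale), by the number of libraries in which the region was called. The line of the constitutive regions lies highest, with 68.8% at 50 kb, and that of regions called in 1 library lowest, with 45.8%.

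Along the chromosomes the regions were spread unevenly. Of 2426 windows of 1 Mb, 375 (15.5%) held no constitutive region, the median window held 4 (quartiles 1 and 9), and 119 windows held 20 or more. The 419 fullest windows, 17.3% of all, held 50% of the constitutive regions, whereas 852 windows (35.1%) were needed for 50% of the regions called in 1 library. The latter are far more numerous (85621 against 14668), and a sparser set fills fewer windows by counting alone, so these shares do not compare how clustered the classes are. The fullest were 2 neighbouring windows of chromosome 10, from 79 to 80 Mb with 59 constitutive among 183 merged regions and from 80 to 81 Mb with 55 among 201, followed by chromosome 8 from 73 to 74 Mb with 41 among 134. Over the windows, the number of constitutive regions went with that of regions called in 3 libraries (Pearson r = 0.82, Spearman rho = 0.83) and less closely with that of regions called in 1 library (r = 0.67, rho = 0.77). The windows share libraries, enzyme sites and mappable sequence, so these values are descriptions. The longest stretch without a constitutive region, singled out after its value was seen, ran for 7.51 Mb on chromosome 7 from 39004001 to 46512800 and held 17 merged regions. The next, 7.09 Mb on chromosome 14 from 90630101 to 97718200, held 205 merged regions, each called in fewer than 4 libraries.

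The autosomes differed in density and, less, in the share of their merged regions that were constitutive. Density was highest on chromosome 11 with 7.85 regions per Mb, followed by chromosome 7 with 7.40 and chromosome 5 with 7.34. It was lowest on chromosome 13 with 4.54 and chromosome 14 with 4.56. The share was highest on chromosome 7, where 1106 of 11056 merged regions (10.0%, 9.45 to 10.6%) were constitutive, and lowest on chromosome 13 with 533 of 7172 (7.43%, 6.84 to 8.06%). Young TSA was longer than young control in most constitutive regions of every autosome, from 57.5% on chromosome 3 to 69.1% on chromosome 7. The share in the young gained list ranged from 12.4% (9.71 to 15.5%) on chromosome 13 to 19.3% (16.3 to 22.5%) on chromosome 17.

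**Figure D5:**
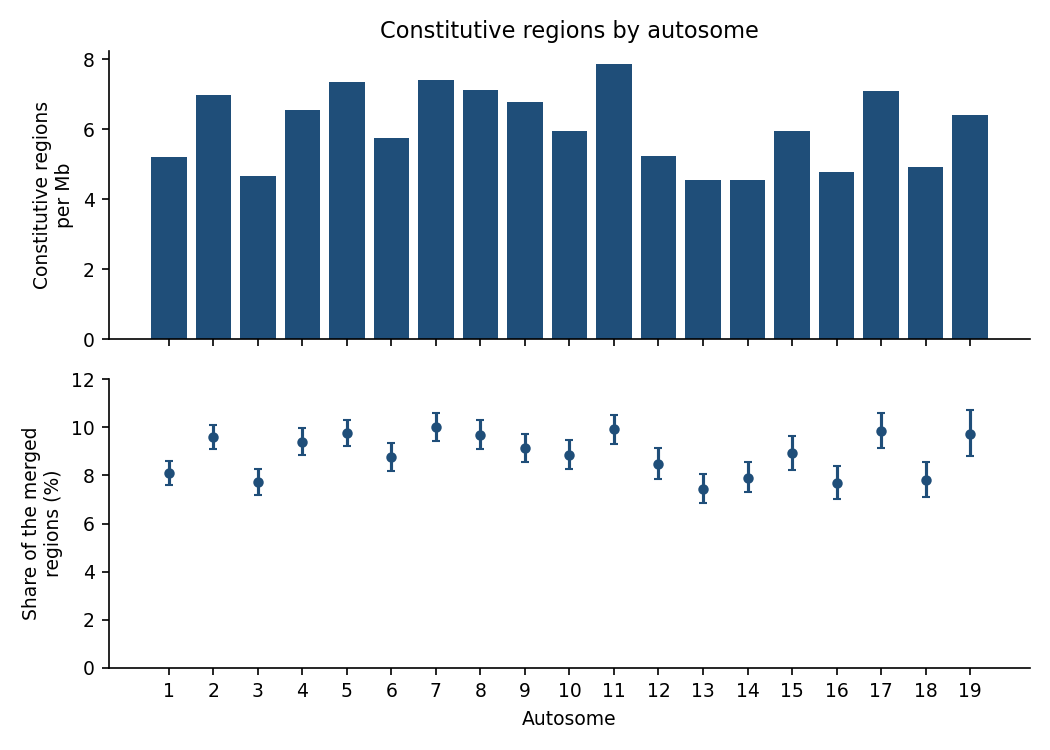
Constitutive regions by autosome: the upper panel gives their number per Mb, and the lower panel their share of all merged regions of that autosome (%) with 95% exact binomial intervals. Density runs from 4.54 per Mb on chromosome 13 to 7.85 on chromosome 11, and the share from 7.43% on chromosome 13 to 10.0% on chromosome 7.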

How the data were processed

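NA-seq libraries of FAPs from mdx mice were compared, 1 per group. Bowtie 0.12.7 and build mm9 are named in the submitters' processing notes, without their role. How regions were called and how the differential lists were tested is not stated in the labels or files. The authors' 8 deposited lists hold positions alone (4 libraries and 4 differential lists), without counts or scores. The direction of each differential list was read from the file's name (the library named first is the higher one). All positions are multiples of 100 bp and no region is narrower than 1000 bp. Library regions that touched or overlapped (gap 0 bp) were merged, and called length, common core and overlaps (at least 1 bp) were computed per merged region. Density is per Mb between the first and last merged region of a chromosome. The functions were tested on 10 simulated sets of lists, of which 0 differed from brute force. Python 3.11.15, numpy 2.4.6, pandas 2.3.3, scipy 1.17.1 and matplotlib 3.10.9 were used. Intervals are 95% exact binomial. No p-value was computed. The members, comparisons and named regions (the 5 widest, the 5 with the longest core, the 5 widest of identical extent, the 3 widest in lists of opposite direction, the 3 fullest windows) were chosen with earlier results of these data known. Planned analyses of genes, enzyme sites and base composition needed an mm9 genome and were not done. Alternatives are given in the closing section.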

Additional observations from a re-analysis of the deposited data

Results flagged for a closer look

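Called length differed between the TSA and control libraries in young mice and was nearly balanced in old mice. Of the constitutive regions with unequal length, 82.3% were longer in TSA than in control in the young libraries. In the old libraries the share was 49.2% (48.2 to 50.1%), and it passed to 50.6% with library regions of 1900 bp or wider. Calls outside constitutive regions were also wider in young TSA (median 1700 bp) than in young control (1400 bp). In the authors' lists the gained share exceeded the lost share in young mice (16.1% against 0.382%) and was slightly below it in old mice (2.97% against 3.02%, or 436 against 443 regions). With all library regions, the same order was present over all merged autosomal regions, with 5.00% against 0.274% in young and 2.10% against 2.56% in old mice, so it is not particular to the constitutive regions. With library regions of 1900 bp or wider the order in old mice was reversed, 3.62% gained against 3.20% lost. All merged regions at that setting gave 3.11% against 4.27%. The intervals cover counting error only and treat regions as independent, so they do not compare the shares. With 1 library per group the difference between the ages could not be tested, and was not tested.

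Outside the autosomes, 85 further merged regions were called in all 4 libraries: 71 on chromosome X, 12 on chromosome Y and 2 in the mitochondrial genome.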

How the results depend on the processing

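The direction of called length in young TSA against young control and the directions between the ages were the same under every alternative run. The split between old TSA and old control passed to the other side, 50.6%, with library regions of 1900 bp or wider only, and the cause was not tested. Library shares are given for the young control first, then young TSA, followed by the old control and TSA libraries. The number of constitutive regions was 32427 without young control, and 5278 with regions of 1900 bp or wider, where fewer regions enter. With those wider regions the shares of the libraries were 39.0%, 14.0%, 11.8% and 13.8%, the median width 2700 bp, the median core 1900 bp, the share longer in old than in young control 66.3%, and in old than in young TSA 33.4%. The young gained share was then 25.9% and the young lost share 0.625%. The old gained share was 3.62%, above the old lost share of 3.20%. The share with another constitutive region within 50 kb was 45.2%.

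Requiring a base common to all libraries gave shares of 34.0%, 18.6%, 15.5% and 17.2%, a median width of 2400 bp, a core of 1500 bp and 67.4% within 50 kb. Requiring each library to cover 50% of the region gave 24.5%, 13.0%, 10.9% and 12.1%, a width of 2200 bp, a core of 1600 bp, 80.3% longer in young TSA, 70.6% longer in old control than in young control, list shares of 15.3% (young gained), 2.01% (old gained) and 2.13% (old lost), and 56.4% within 50 kb. Merging regions up to 500 bp apart gave 38.7%, 22.7%, 18.7% and 20.7%, a width of 2800 bp, list shares of 16.8%, 3.44% and 3.50%, and 69.7% within 50 kb. Regions with 1 call per library had a median width of 2300 bp and a core of 1500 bp. Counting only differences of at least 200 bp gave 83.7% longer in young TSA and 74.8% longer in old control than in young control. Within 25 kb and 100 kb the share with a neighbour was 51.8% and 83.3%.

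The other counts of constitutive regions lay between 10169 and 17900, and the other values stayed within their intervals, including those with touching regions kept apart and with all chromosomes. No paired analysis was possible because each group has 1 library, which also leaves no replicate to leave out. Depth is unknown and no value is weighted by it.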
